A study of Rattus norvegicus with 15 samples.

Results

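The genes described here are Dusp1, which encodes a phosphatase that removes phosphate from MAP kinases, and 9 immediate early genes, Fos, Jun, Junb, Atf3, Egr1, Nr4a1, Ier2, Ier3 and Zfp36. They were taken by symbol from the annotation of a rat gene expression array, and all 10 were found among 15037 named genes, each with 1 probe set. They were measured in heart RNA of male SD (Sprague-Dawley) rats aged 8 to 10 weeks. In the SAP 24 h and SAP 12 h groups, severe acute pancreatitis was induced with 5% sodium taurocholate, a bile salt driven backwards into the ducts of the pancreas and bile, and the hearts were taken 24 h or 12 h later. Sham-operated rats of the same sex, strain and age formed the third group, and each of the 3 groups held 5 arrays. The design text gives 5 hearts per group, while other fields of the labels disagree among themselves: the series title and an extraction note speak of ischemia and reperfusion, that note also names mice and hours other than 12 and 24, and the design text names a mouse array although the probe sets are those of a rat array. The groups follow the fields of each sample. Neither the hour of day nor the time at which sham hearts were taken is given in the sources used here, so time of day and time after surgery cannot be told apart from SAP. The labels do not say whether sham surgery included an infusion into the ducts.

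Immediate early genes are transcribed within minutes of a stimulus without new protein synthesis, because the factors that switch them on are already present and are activated by phosphorylation, largely through MAP kinases. Serum response factor with its Elk partners binds the CArG box, and CREB binds the cyclic AMP response element (CRE). Their transcripts are usually short-lived. Several products are transcription factors that act on later genes. Others close the loop: Dusp1 dephosphorylates the MAP kinases, and Zfp36 (tristetraprolin) marks transcripts with AU-rich elements for decay. In the heart these genes are known to respond to stretch, adrenergic signals, ischemia and the handling of tissue at collection.

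For 6 of the 10 genes the 250 bases before the annotated start were read from RefSeq (build GRCr8). The promoters of 4 of them are shown because they differ in the elements that the signals above act on: Dusp1, lower in both SAP groups, Nr4a1, which varied most between hearts, Zfp36, which has a CArG box, and Junb, which has a TATA box. Capitals mark the CRE core (TGACG), the Egr site (GCGNGGGCG), the CArG box and the TATA box (TATAAA), each searched on both strands and printed 5′ to 3′ on the strand of the gene.
Dusp1, chr10:17184603-17184852, plus strand: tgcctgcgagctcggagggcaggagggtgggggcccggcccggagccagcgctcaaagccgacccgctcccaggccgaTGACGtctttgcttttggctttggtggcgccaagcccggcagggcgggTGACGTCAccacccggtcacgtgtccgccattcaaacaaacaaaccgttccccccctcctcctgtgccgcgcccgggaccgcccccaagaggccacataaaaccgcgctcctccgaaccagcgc
Nr4a1, chr7:134259888-134260137, plus strand: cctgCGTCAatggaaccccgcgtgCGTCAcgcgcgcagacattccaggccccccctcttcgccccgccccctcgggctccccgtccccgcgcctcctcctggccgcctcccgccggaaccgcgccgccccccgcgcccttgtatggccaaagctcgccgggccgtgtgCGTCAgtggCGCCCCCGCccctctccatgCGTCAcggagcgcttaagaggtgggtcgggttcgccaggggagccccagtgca
Zfp36, chr1:92799109-92799358, minus strand: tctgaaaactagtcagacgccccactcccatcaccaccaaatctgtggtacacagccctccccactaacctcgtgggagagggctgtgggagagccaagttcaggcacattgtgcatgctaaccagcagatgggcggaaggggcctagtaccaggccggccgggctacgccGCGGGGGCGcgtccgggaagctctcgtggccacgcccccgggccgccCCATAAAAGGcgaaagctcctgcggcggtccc
Junb, chr19:40080876-40081125, plus strand: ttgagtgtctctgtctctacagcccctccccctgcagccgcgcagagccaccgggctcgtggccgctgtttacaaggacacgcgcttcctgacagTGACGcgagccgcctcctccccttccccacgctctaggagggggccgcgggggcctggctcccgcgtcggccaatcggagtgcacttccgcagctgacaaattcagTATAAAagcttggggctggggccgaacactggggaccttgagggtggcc

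The CRE core was found in 5 of the 6 promoters, against 18.2% of 33465 promoters of the same length. Dusp1 held 3 matches, of which the pair between positions -124 and -117, counted back from the start, overlap on opposite strands. Nr4a1 held 4, Egr1 2, Ier2 2, again overlapping on opposite strands between -66 and -59, Junb 1 and Zfp36 0. The CArG box, found in 1.5% of all promoters, was found 2 times in Egr1, between -105 and -96 and between -83 and -74, and 1 time in Zfp36, between -32 and -23. The site of the Egr factors, in 4.29% of all promoters, was found in Zfp36 and Nr4a1, and a TATA box, in 12.9%, in Junb. Neither the AP-1 site TGANTCA (6.34% of all promoters) nor the glucocorticoid receptor core AGAACA (17.5%) was found in any of the 6 windows. No match of 1 motif overlapped a match of another. These matches describe the letters and show no binding.

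**Figure D1:**
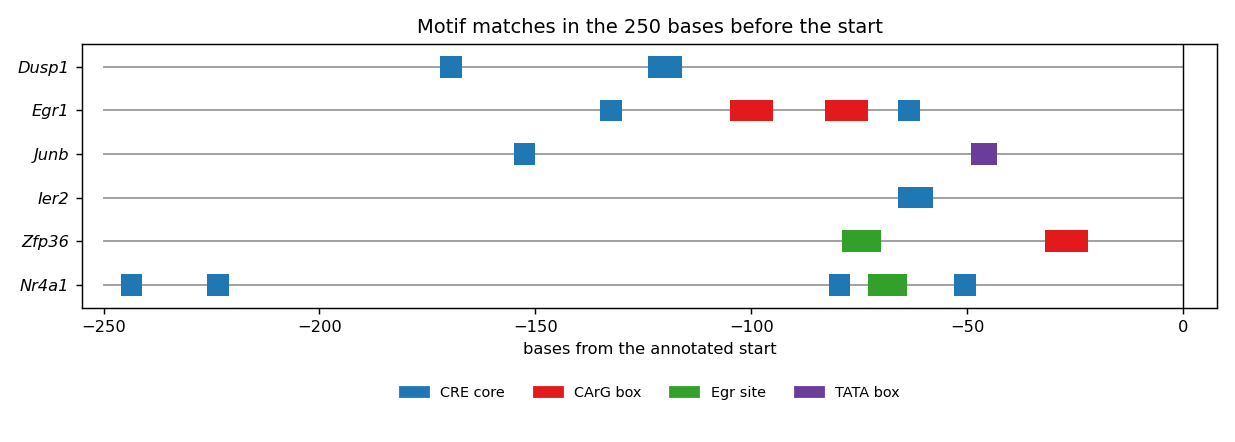
Motif matches in the 250 bases before the annotated start of 6 genes (x axis, bases from the start; 1 row per gene). The CRE core is present in every row except Zfp36, and a CArG box is present in Egr1 and Zfp36.

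The arrays gave 23188 probe sets with medians between 5.9 and 5.98 on the log2 scale, and an array correlated with the others of its group at a mean r of 0.987 to 0.994. Markers of cardiomyocytes were at 15.2 to 19.6 log2 in all groups, as a heart label requires. In 4 arrays, SAP 12 h replicates 3 and 4 and sham replicates 2 and 3, the atrial transcripts Myl4 and Sln both exceeded 12 log2, and these are called atrium-rich below. The 6 atrial markers summed to 11.83 to 16.9 log2 at SAP 24 h, 10.84 to 20.73 at SAP 12 h and 13.94 to 20.25 in sham hearts. Of these 6, 1 was called lower at SAP 24 h than in sham hearts. Fibroblast markers summed to 18.03 to 18.39 log2 at SAP 24 h, 18.36 to 19 at SAP 12 h and 18.05 to 18.39 in sham hearts. The median log2 fold change of the 7 against sham was -1.03 at SAP 24 h, with 1 called lower, and -0.73 at SAP 12 h, with 1 called higher. Of 8 ventricular and general cardiomyocyte markers, 1 was called lower at SAP 12 h. Macrophage markers summed to 12.55 to 13.05 log2 at SAP 24 h, 13.03 to 14.31 at SAP 12 h and 12.61 to 12.99 in sham hearts. Of the 9, 4 were called higher at SAP 12 h than in sham hearts, and 3 were called lower at SAP 24 h than at SAP 12 h. Neutrophil markers summed to 7.77 to 10.17, 8.61 to 10.37 and 7.24 to 7.65 log2 in the same order of groups. Of the 6 measured, 3 were called higher at SAP 12 h and 1 at SAP 24 h. Without the 4 atrium-rich arrays 1 macrophage and 3 neutrophil markers were called higher at SAP 12 h, and 2 fibroblast markers lower. With the mean of the 6 atrial markers as a covariate, 6 macrophage, 3 neutrophil and 1 fibroblast markers were called higher there. In that fit 2 fibroblast markers were called lower. The part of these shifts in the results below was not tested. The counts of called members are also given without the 4 atrium-rich arrays. Pancreatic acinar genes, which a heart should lack, were at 3.39 to 6.44 log2 with a median of 4.66, and this range serves as a guide to the background. Their highest value was 6.44 at SAP 24 h, 6.12 at SAP 12 h and 5.77 in sham hearts. Of these 10 genes, 1 was called higher at SAP 24 h than in sham hearts. The range over all groups is used below, so a sham or SAP 12 h value within it can exceed every acinar value of its own group. The range also reaches above the array medians, and 50.7% of all probe sets had a mean under 6 log2. In bulk tissue, fewer cells of a type and less RNA per cell cannot be told apart.

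Relative to sham hearts, Dusp1 fell at both times, Egr1 fell at 24 h and Atf3 fell at 12 h. No member was called higher in either comparison. A gene was called when its adjusted p in limma, a linear model with a spread shared among genes, was under 0.05 after Benjamini-Hochberg adjustment over all probe sets. At SAP 24 h, 2 of 10 members were called lower and 0 higher, against a background of 3.37% of all probe sets called (2.14% lower and 1.23% higher). Their median log2 fold change was -0.78, against 0.02 over all probe sets. All 10 log2 fold changes were below 0, as were 45.3% of those of all probe sets. The members share their arrays, and 42 of their 45 pairs correlated positively within groups, so these are not 10 separate results. In the 12 h comparison 2 of 10 were called lower and 0 higher, against a background of 4.92% called (2.57% lower and 2.35% higher). The median was -0.44, against 0.01 over all probe sets. Here 7 of 10 were below 0, against 47.9% of all. The arrays of the 2 groups did not overlap for 2 members at SAP 24 h, Dusp1 and Fos, both lower, against 3.37% of all probe sets that were lower without overlap. They did not overlap for 1 member at SAP 12 h, Atf3, against 2.44% of all probe sets. Both comparisons share the 5 sham arrays, so they are not independent of each other. Without the 4 atrium-rich arrays, Dusp1 and Egr1 were called lower at SAP 24 h, against 2.16% of all probe sets called in that fit. At SAP 12 h 0 of 10 members were called, against 2.58%.

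**Figure D2:**
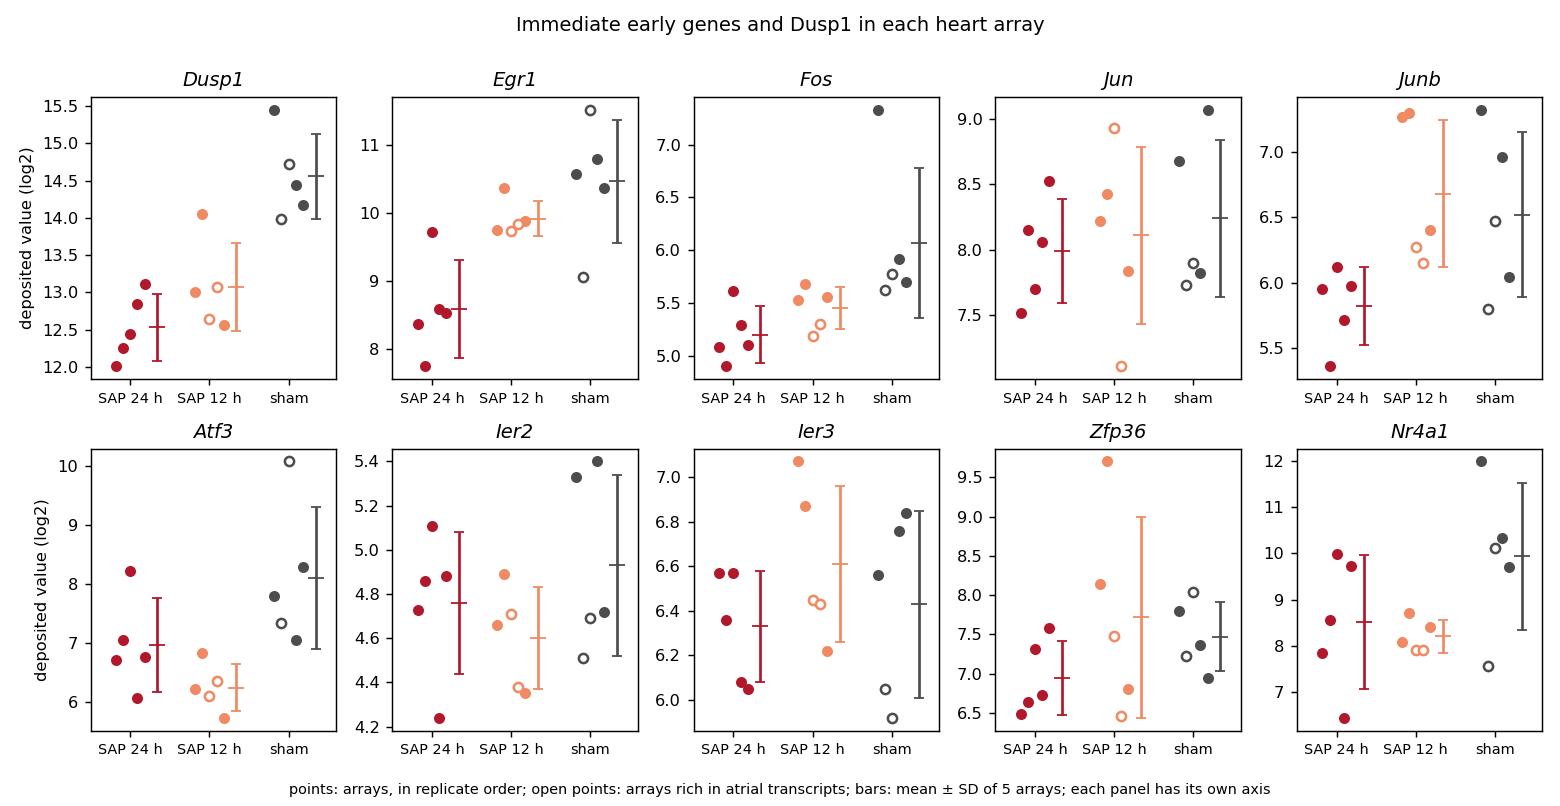
Deposited log2 value (y axis, separate scale in each panel) of the 10 genes in each array, by group, with mean ± SD of 5 arrays beside the points. Open points are the 4 arrays rich in atrial transcripts. All SAP 24 h points of Dusp1 and of Fos lie below all sham points.

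Dusp1 was the brightest of the 10 probe sets. Its log2 values at SAP 24 h were 12.01, 12.25, 12.44, 12.84 and 13.12. Those at SAP 12 h were 13.00, 14.05, 12.65, 13.07 and 12.57, against 15.45, 13.98, 14.73, 14.44 and 14.18 in sham hearts. Every SAP 24 h heart was below every sham heart, while 1 SAP 12 h heart, replicate 2 at 14.05, was above the lowest sham heart. Dusp1 averaged 12.53 ± 0.45 log2 at SAP 24 h, 13.07 ± 0.59 at SAP 12 h and 14.56 ± 0.57 in sham hearts (SD, n = 5 each). It was 4.07-fold lower at SAP 24 h than in sham hearts (log2 fold change -2.02 ± 0.29 SE, 95% interval -2.63 to -1.41, limma adjusted p = 0.000655). The SAP 12 h hearts were 2.80-fold lower (-1.49 ± 0.29, interval -2.10 to -0.88, limma adjusted p = 0.00471). An exact two-sided permutation test over the arrays gave an unadjusted p of 0.00794 at SAP 24 h, the smallest that 5 against 5 allows, and 0.0159 at SAP 12 h. The difference at SAP 12 h was as large without the 4 atrium-rich arrays (-1.48 ± 0.39), but with 3 arrays left in each of these groups its limma adjusted p was 0.0594. At SAP 24 h the value without them was -2.16 ± 0.34 (limma adjusted p = 0.00512).

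Fos and Jun encode the partners of the AP-1 factor, Junb a Jun relative, and Atf3 a stress-induced factor of the same leucine zipper class. Atf3 had log2 values of 6.72, 7.06, 8.23, 6.08 and 6.77 at SAP 24 h and 6.23, 6.83, 6.11, 6.36 and 5.74 at SAP 12 h. Sham hearts had 7.81, 7.34, 10.08, 7.05 and 8.29. Every SAP 12 h heart was below every sham heart, whereas the SAP 24 h hearts overlapped with both groups. Atf3 averaged 6.97 ± 0.79 log2 at SAP 24 h, 6.25 ± 0.40 at SAP 12 h and 8.11 ± 1.20 in sham hearts (SD, n = 5 each). It was called lower at SAP 12 h than in sham hearts (log2 fold change -1.86 ± 0.45, interval -2.80 to -0.92, limma adjusted p = 0.0197). As 4 of the 5 SAP 12 h arrays lay within the range of the acinar genes, the size of this fall is uncertain. Of those 4, the values 6.23 and 6.36 were above 6.12, the highest acinar value at SAP 12 h itself. The SAP 12 h call was lost without sham replicate 5 (limma adjusted p = 0.0512), without SAP 12 h replicate 5 (0.0508) and without the 4 atrium-rich arrays (-1.45 ± 0.44, adjusted p = 0.116). With the trend and robust settings of eBayes, the variance step of limma, Atf3 was also not called at SAP 12 h (adjusted p = 0.0641). At SAP 24 h its difference from sham was -1.14 ± 0.45 (interval -2.09 to -0.20, limma adjusted p = 0.190).

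Fos had log2 values of 5.08, 4.90, 5.61, 5.29 and 5.10 at SAP 24 h and 5.53, 5.68, 5.19, 5.30 and 5.56 at SAP 12 h, against 7.33, 5.62, 5.77, 5.92 and 5.70 in sham hearts. The SAP 24 h hearts were all below the sham hearts, by as little as 0.01 log2 between the nearest pair, and sham replicate 1 stood far above the rest. The difference from sham was -0.87 ± 0.25 at SAP 24 h (interval -1.40 to -0.35, limma adjusted p = 0.0627) and -0.62 ± 0.25 at SAP 12 h (interval -1.14 to -0.09, limma adjusted p = 0.208), and neither was called. All Fos values except that of sham replicate 1 lay within the acinar range, so that its signal was close to the level of genes not thought to be expressed. Junb values were 5.95, 5.36, 6.12, 5.71 and 5.97 at SAP 24 h, 7.27, 7.30, 6.27, 6.15 and 6.40 at SAP 12 h and 7.32, 5.80, 6.47, 6.96 and 6.04 in sham hearts. The SAP 24 h values overlapped with sham but lay below every SAP 12 h value. All 5 SAP 24 h values, 3 of 5 at SAP 12 h and 2 of 5 in sham hearts lay within the acinar range, so the size of the differences of Junb is uncertain. The difference of Junb from sham was -0.70 ± 0.28 at SAP 24 h (interval -1.28 to -0.11, limma adjusted p = 0.199) and 0.16 ± 0.28 at SAP 12 h (interval -0.43 to 0.75, limma adjusted p = 0.868). With the mean of the 6 atrial markers as a covariate, Fos (-1.08, adjusted p = 0.0401) and Junb (-1.06, adjusted p = 0.0380) were called lower at SAP 24 h in limma, where 2.17% of all probe sets were called. Without the 4 atrium-rich arrays neither was called in limma (Fos -1.12, adjusted p = 0.0602, and Junb -0.95, adjusted p = 0.102). No SAP 24 h array was atrium-rich, so the covariate and the group cannot be fully told apart. At SAP 12 h the covariate left Dusp1 and Atf3 as the called members, with 5.35% of all probe sets called. Jun averaged 7.99 ± 0.40 log2 at SAP 24 h, 8.11 ± 0.68 at SAP 12 h and 8.24 ± 0.60 in sham hearts, with ranges of 7.52 to 8.53, 7.11 to 8.93 and 7.73 to 9.07. Its 3 groups overlapped, and the intervals of its difference from sham were -0.89 to 0.39 at SAP 24 h and -0.78 to 0.51 at SAP 12 h.

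Egr1, a zinc finger factor, and Nr4a1 (Nur77), an orphan nuclear receptor, are early transcription factors outside the leucine zipper class. Egr1 values were 8.37, 7.75, 9.73, 8.59 and 8.53 log2 at SAP 24 h and 9.75, 10.37, 9.74, 9.84 and 9.89 at SAP 12 h. In sham hearts they were 10.58, 9.06, 11.52, 10.80 and 10.37. All SAP 24 h hearts lay below all SAP 12 h hearts, and only SAP 24 h replicate 3 was above the lowest sham heart, replicate 2. Egr1 averaged 8.59 ± 0.72 log2 at SAP 24 h, 9.92 ± 0.26 at SAP 12 h and 10.47 ± 0.90 in sham hearts (SD, n = 5 each). It was 3.66-fold lower at SAP 24 h than in sham hearts (log2 fold change -1.87 ± 0.36, interval -2.63 to -1.12, limma adjusted p = 0.00689). The exact permutation test gave an unadjusted p of 0.0159. The difference at SAP 12 h was -0.55 ± 0.36 (interval -1.30 to 0.21, limma adjusted p = 0.520).

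Nr4a1 values were 7.84, 8.55, 9.98, 6.44 and 9.72 log2 at SAP 24 h and 8.09, 8.70, 7.91, 7.90 and 8.40 at SAP 12 h. Sham hearts had 11.99, 7.56, 10.11, 10.34 and 9.71. The sham hearts other than replicate 2 were above all SAP 12 h hearts, and replicate 2, an atrium-rich array, was below them. The difference from sham was -1.44 ± 0.65 at SAP 24 h (interval -2.80 to -0.07, limma adjusted p = 0.274) and -1.74 ± 0.65 at SAP 12 h (interval -3.11 to -0.37, limma adjusted p = 0.163). Neither passed the test. Without sham replicate 2 the SAP 12 h difference was -2.34 and was called (limma adjusted p = 0.0246). In the other 9 fits without 1 array it was not called, with values up to -1.23 and limma adjusted p up to 0.358.

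Zfp36 values were 6.49, 6.64, 7.32, 6.73 and 7.58 log2 at SAP 24 h, 8.14, 9.70, 7.48, 6.46 and 6.81 at SAP 12 h and 7.80, 7.22, 8.04, 7.37 and 6.94 in sham hearts. The groups overlapped, and the SAP 12 h hearts spread over the widest range, from 6.46 to 9.70. The difference from sham had intervals of -1.43 to 0.39 at SAP 24 h and -0.67 to 1.16 at SAP 12 h (limma adjusted p = 0.607 and 0.873). Ier3, a regulator of survival signalling, averaged 6.33 ± 0.25 log2 at SAP 24 h, 6.61 ± 0.35 at SAP 12 h and 6.43 ± 0.42 in sham hearts. Ier2, a nuclear protein of the early response, averaged 4.76 ± 0.32, 4.60 ± 0.23 and 4.93 ± 0.41 log2 in the same groups. All Ier2 values, 4.24 to 5.40, lay within the range of the acinar genes. For Ier3 the intervals were -0.52 to 0.32 at SAP 24 h and -0.23 to 0.60 at SAP 12 h. For Ier2 they were -0.56 to 0.23 and -0.73 to 0.06. Of the Ier3 values, 3 of 5 at SAP 24 h, 2 of 5 at SAP 12 h and 2 of 5 in sham hearts lay within the acinar range.

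**Figure D3:**
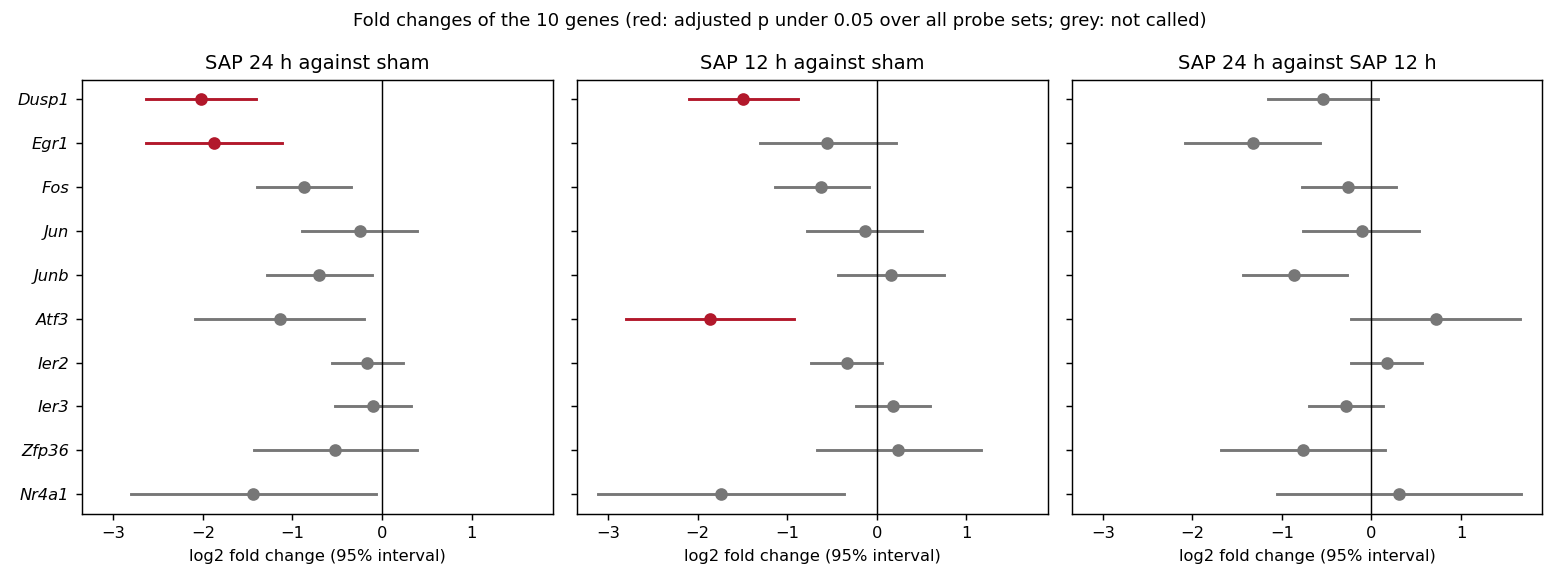
Log2 fold change with its 95% interval (x axis) of the 10 genes in 3 comparisons, from the fit to all 15 arrays. Red marks the called differences: Dusp1 (-2.02) and Egr1 (-1.87) at SAP 24 h against sham, and Dusp1 (-1.49) and Atf3 (-1.86) at SAP 12 h against sham.

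The direct comparison of the SAP groups tests whether their differences from sham differ. No member was called at SAP 24 h against SAP 12 h in limma, against a background of 0.690% of all probe sets (0.569% lower and 0.121% higher). The members with the smallest p were Egr1, with a log2 fold change of -1.32 ± 0.36 (interval -2.08 to -0.57, limma adjusted p = 0.103), and Junb, with -0.86 ± 0.28 (interval -1.44 to -0.27, limma adjusted p = 0.170). They were also the 2 of 10 members whose SAP 24 h and SAP 12 h arrays did not overlap, both lower at SAP 24 h, against 1.59% of all probe sets that were lower without overlap. The exact permutation p was 0.00794 for each, unadjusted and the smallest possible. Egr1 was called without SAP 24 h replicate 3, the highest of its group (-1.61, limma adjusted p = 0.0311), but not in the other 9 fits without 1 array. Junb was called with the atrial covariate (-1.23, limma adjusted p = 0.0497), where 0.358% of all probe sets were called. Without the 4 atrium-rich arrays 0 of 10 members were called, against 0.367% of all probe sets, and Egr1 was at -1.41 (limma adjusted p = 0.0861). The interval of Dusp1 was -1.15 to 0.07 and that of Atf3 -0.23 to 1.66, so that the fall of Dusp1 at 24 h and of Atf3 at 12 h was not shown to differ between the 2 times.

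The 10 genes varied more between hearts of 1 group than most probe sets did. The within-group SD was 1.26 log2 for Nr4a1, 0.86 for Atf3, 0.83 for Zfp36, 0.68 for Egr1, 0.57 for Jun, 0.54 for Dusp1, 0.52 for Junb and 0.46 for Fos, each above at least 95% of all probe sets, whose median was 0.24. Ier3 (0.35) and Ier2 (0.33) were at percentiles 85.6 and 82. At the extremes, in SAP 12 h replicate 2 all 10 genes were above the mean of their group, in SAP 24 h replicate 3 it was 8 and in sham replicate 1 it was 9. In sham replicate 2, by contrast, 0 of 10 were above it, and in the other 11 arrays it was 2 to 6. Of the 45 pairs of members, 42 had a positive correlation of their deviations from group means over the 15 arrays, with a median r of 0.38 and a range of -0.04 to 0.79. Among all pairs of the 15037 named genes 50.2% were positive. Few of the member pairs passed a test: 2 had an adjusted p under 0.05 for r, and 1 for both r and rho. Fos and Junb had r = 0.72 and rho = 0.75 (permutation within groups, p = 0.000240 and 0.000740, adjusted over the 45 pairs 0.0108 and 0.0333), and r was 0.68 without the 2 arrays farthest out. Ier2 and Nr4a1 had r = 0.79 and rho = 0.75 (permutation adjusted p = 0.0169 and 0.0709), and r was 0.62 without 2 arrays.  The 10 genes of an array were read from the same heart and tissue piece, whose part in these correlations was not tested.

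**Figure D4:**
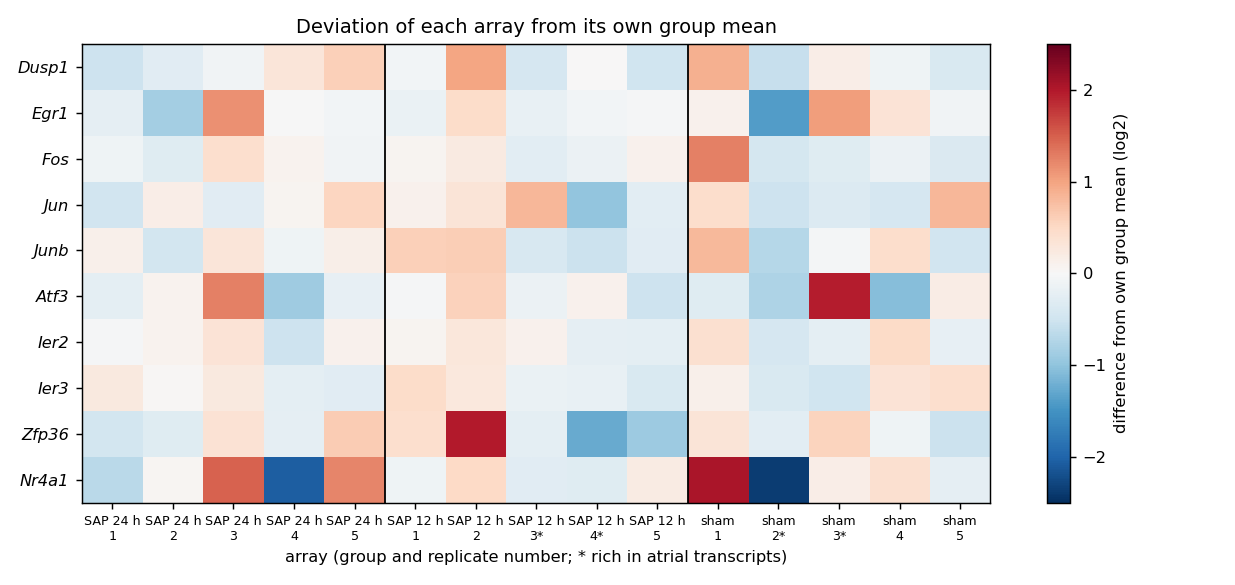
Deviation of each array from its own group mean (colour, log2) for the 10 genes (rows) in the 15 arrays (columns; * marks arrays rich in atrial transcripts). The column of SAP 12 h replicate 2 is above 0 in all 10 rows and that of sham replicate 2 in none.

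Over the 15 arrays, the genes outside the set whose levels most resembled the mean of the 10 members, each scaled to the same SD, were Dgcr6 (r = 0.90), Akt1s1 (0.88), Sik1 (0.87), Mrpl4 (0.84), Nfic (0.83) and Mtor (0.82). They were sought among 7955 named genes with a mean of at least 6 log2. Sik1, a kinase induced by cyclic AMP, averaged 6.82 ± 0.44 log2 at SAP 24 h, 6.81 ± 0.48 at SAP 12 h and 7.48 ± 0.64 in sham hearts, and its r within groups was 0.86. Dusp1 alone was most like Endog (0.90), Sae1 (0.90), Ankh (0.87), Nfic (0.87), Apold1 (0.86) and Tmod1 (0.86). Apold1, an early-response gene of endothelium, kept an r of 0.86 with Dusp1 within groups, while that of Sae1 was 0.47. These are likenesses picked as the highest of many and carry no test.

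Other genes of the same pathways were counted in the same limma fit. Over all probe sets, 2.14% were called lower and 1.23% higher at SAP 24 h, and 2.57% lower and 2.35% higher at SAP 12 h. Of 16 other AP-1 and stress leucine zipper genes, 0 were called at SAP 24 h and 1 at SAP 12 h, Atf4, a factor of the integrated stress response, which was higher (log2 fold change 0.67 ± 0.16, limma adjusted p = 0.0178). The list's median was -0.01 at SAP 24 h and 0.14 at SAP 12 h, against 0.02 and 0.01 over all probe sets. Of 14 other Egr, Klf and Nr4a genes, 2 were called lower at SAP 24 h, Klf4 (-0.92 ± 0.23, limma adjusted p = 0.0335) and Klf2 (-0.84 ± 0.21, 0.0342), zinc finger factors of the vessel wall. A single one was called lower at SAP 12 h, Nr4a3, the close relative of Nr4a1 (-1.85 ± 0.52, limma adjusted p = 0.0479). Nr4a3 averaged 7.52 ± 1.22 log2 at SAP 24 h, 5.87 ± 0.38 at SAP 12 h and 7.72 ± 1.16 in sham hearts. Of 29 other genes of early stimulus responses, 1 was called lower at SAP 24 h, Ccn1 (-1.34 ± 0.31, limma adjusted p = 0.0235), a secreted matrix protein. Ccn1 (-1.28 ± 0.31, 0.0209) and Trib1 (-0.86 ± 0.20, 0.0173) were called lower at SAP 12 h, and Myc, the growth-related factor, was called higher there (0.94 ± 0.22, 0.0149). No gene of these 3 lists was called at SAP 24 h against SAP 12 h. All SAP 12 h values of Nr4a3 and all values of Klf4 lay within the acinar range, as did 4 of 5 Klf2 values at SAP 24 h, 3 of 5 Trib1 values at SAP 12 h and 4 of 5 Myc values in sham hearts, so the sizes of these differences are uncertain. Leaving out 1 array at a time, the call of Myc was kept in 10 of 10 fits, that of Atf4 was lost in 1, of Trib1 in 2, of Ccn1 in 5 at SAP 24 h and 4 at SAP 12 h, of Klf2 in 6, of Klf4 in 7 and of Nr4a3 in 9. Without the 4 atrium-rich arrays the calls of Nr4a3, Myc, Atf4, Trib1, Ccn1 and Klf2 were lost and that of Klf4 remained (-1.16, limma adjusted p = 0.0109). The log2 fold changes in that smaller fit were -2.05 for Nr4a3, 1.00 for Myc, 0.55 for Atf4, -0.99 for Trib1 and -0.85 for Klf2. For Ccn1 they were -1.28 at SAP 24 h and -1.27 at SAP 12 h. Apart from that of Atf4, these were about as large as with all arrays or larger. The medians were -0.14 at SAP 24 h and -0.09 at SAP 12 h for the Egr, Klf and Nr4a genes, and -0.18 and 0.05 for the other genes of early responses.

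The kinases that switch these genes on and the enzymes that switch the kinases off were mostly not called, as were most probe sets. The share called over all probe sets was 3.37% at SAP 24 h, 4.92% at SAP 12 h and 0.690% between the SAP groups. Of 13 other MAP kinase phosphatases and feedback inhibitors, 0 were called at SAP 24 h. Dusp5, an ERK phosphatase, was called higher at SAP 12 h (1.47 ± 0.42, limma adjusted p = 0.0489) and Dusp8, a phosphatase of JNK and p38, lower (-1.07 ± 0.30, 0.0474). Their calls were lost in 9 and 6 of the 10 fits without 1 array and in the fit without the 4 atrium-rich arrays, where their values were 1.42 and -0.96. Of the 5 Dusp8 values at SAP 12 h, 3 lay within the acinar range. For Dusp5 it was 1 of 5 at SAP 12 h and 2 of 5 in sham hearts, so the sizes of both differences are uncertain. Spry2, an inhibitor of receptor tyrosine kinase signalling, was lower at SAP 24 h than at SAP 12 h (-0.64 ± 0.13, limma adjusted p = 0.0306). The Spry2 call did not hold in 7 of 10 fits without 1 array, with quantile normalization repeated (limma adjusted p = 0.0568), with the atrial covariate (0.142) and without the 4 atrium-rich arrays (-0.59, 0.125). Of 18 MAP kinases and their kinases, Map2k6 (MKK6), which activates p38, was called lower at both times. It averaged 6.77 ± 0.39 log2 at SAP 24 h, 6.65 ± 0.29 at SAP 12 h and 7.89 ± 0.44 in sham hearts (SD, n = 5 each). In each SAP group 1 of its 5 values lay within the acinar range. The difference was -1.12 ± 0.21 at SAP 24 h (limma adjusted p = 0.00640) and -1.24 ± 0.21 at SAP 12 h (0.00181), the SAP arrays did not overlap with the sham arrays, and the call was kept without any 1 array and without the 4 atrium-rich arrays. Rps6ka3 (RSK2), a kinase downstream of ERK, was called higher at SAP 12 h (0.98 ± 0.17, limma adjusted p = 0.00254), and Mapk9 (JNK2) lower (-0.61, 0.0267). The median log2 fold change at SAP 24 h was -0.21 for the phosphatases and inhibitors and -0.01 for the kinases, and at SAP 12 h it was 0 and 0.05. Among 12 transcription factors that act on early gene promoters, Elk1 was called lower at SAP 12 h (-0.59, limma adjusted p = 0.0304) and 0 at SAP 24 h, with medians of -0.17 at SAP 24 h and 0 at SAP 12 h. The call of Rps6ka3 was kept in the same fits as that of Map2k6, while those of Mapk9 and Elk1 were lost in 6 and 5 of 10 fits without 1 array and without the 4 atrium-rich arrays, where both were at -0.71.

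For the lists that follow, the background over all probe sets was 2.14% called lower and 1.23% higher at SAP 24 h. At SAP 12 h it was 2.57% lower and 2.35% higher. For Zfp36, 0 of 6 other AU-rich element binding proteins were called in any of the 3 comparisons in limma. Of 13 transcripts known to carry AU-rich elements, 1 was called, Vegfa, lower at SAP 12 h (-0.62, limma adjusted p = 0.0373). Glucocorticoids induce Dusp1 and Zfp36 in many cells. Of 16 genes known to be induced by glucocorticoids, 3 were called lower at SAP 24 h: the metallothioneins Mt1 (-2.75, limma adjusted p = 0.00307) and Mt2A (-2.56, 0.00314), which bind metals, and the kinase Sgk1 (-1.22, 0.0494). At SAP 12 h Mt1 was lower (-3.36, limma adjusted p = 0.000372) and Lcn2, an iron-carrier binding protein of neutrophils and inflamed tissue, higher (2.77, 0.00527), beside the neutrophil markers given above. The median of the 16 was -0.13 at SAP 24 h and -0.10 at SAP 12 h. Among 13 genes of the integrated stress response, to which Atf3 belongs, Ddit3 (CHOP) was called lower at both times. It averaged 9.40 ± 0.23 log2 at SAP 24 h, 9.36 ± 0.36 at SAP 12 h and 10.62 ± 0.21 in sham hearts (SD, n = 5 each), with limma adjusted p = 0.000425 and 0.000200. At SAP 12 h Atf4 and the amino acid transporter Slc3a2 (0.94, limma adjusted p = 0.0384) were called higher. Of 8 heat shock genes, Hspd1, Hspe1 and Hsph1 were called lower at SAP 24 h and Hspd1 and Hspe1 at SAP 12 h. Hspd1, the mitochondrial chaperonin, averaged 14.68 ± 0.24 log2 at SAP 24 h, 14.69 ± 0.15 at SAP 12 h and 15.38 ± 0.11 in sham hearts (SD, n = 5 each). Its log2 fold changes were -0.70 (limma adjusted p = 0.00399) at SAP 24 h and -0.69 (0.00273) at SAP 12 h. The medians at SAP 24 h and SAP 12 h were -0.18 and 0.10 for the binding proteins, 0.06 and 0.07 for the AU-rich transcripts, 0.08 and 0.19 for the stress response and -0.24 and -0.09 for the heat shock genes. The calls of Mt1, Mt2A, Lcn2, Ddit3 and Hspd1 were kept without any 1 array and without the 4 atrium-rich arrays. Those of Vegfa, Slc3a2, Sgk1, Hspe1 and Hsph1 were lost without the 4 arrays, where the values were -0.73, 0.90 and -1.15 for Vegfa, Slc3a2 and Sgk1, -0.52 at SAP 24 h and -0.59 at SAP 12 h for Hspe1 and -0.61 for Hsph1. Leaving out 1 array ended the call of Vegfa in 7 of 10 fits, of Slc3a2 in 7, of Sgk1 in 8 and of Hspe1 at SAP 24 h in 3.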

How the data were processed

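Heart RNA of 15 rats was measured on Affymetrix arrays, and the deposited file holds log2 values per probe set, normalized by the authors over all arrays. The submitters' processing notes name Affymetrix Expression Console without a version. The table's name gives the method as RMA, which by itself means background correction, quantile normalization and median polish. The values ran from 2.51 to 19.83. Whether the signal was also transformed in another way is not given and was not checked. Each fold size therefore rests on the log2 scale that this name implies and is uncertain to that extent. Symbols came from GEO's platform annotation: 15049 of 23188 probe sets had 1 symbol, 0 had several and 8139 are unnamed here. The number of arrays limits the precision. Where a symbol had several probe sets, the 1 with the highest mean stood for it.

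Groups came from the sample labels. A model with 1 mean per group was fitted with limma 3.58.1 (lmFit, eBayes; R 4.3.3) to the 15 arrays without a filter, p-values were adjusted by Benjamini-Hochberg over 23188 probe sets, and an adjusted p under 0.05 was called. The fit was tested on simulated data. Member correlations used deviations from group means, with permutations within groups. Promoter motifs were searched with Python 3.11.15.

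The members, the further gene lists and the marker lists were chosen with earlier results of these data known. All members are named, and of each further list up to 4 called genes per comparison. Genes of likest pattern were the 6 with the highest Pearson r. Alternatives were another normalization, filters, variance settings, array weights, the compared groups only, a replicate block, each array left out, other thresholds, named genes only, and atrial content as a covariate or by leaving out 4 arrays. No batch is named in the labels.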

Additional observations from a re-analysis of the deposited data

Results flagged for a closer look

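In 2 of the 30 sets of 1 member and 1 group, 1 array lay far from the others by Dixon's test at the 95% level, and chance alone gives about 1 in 20. Fos was at 7.33 log2 in sham replicate 1, with the other sham arrays at 5.62 to 5.92 (gap over range 0.825). Egr1 was at 10.37 log2 in SAP 12 h replicate 2, with the others at 9.74 to 9.89 (0.762). Both arrays were also those in which 9 and 10 of the 10 members exceeded their group mean.

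The differences of 2 further genes from sham differed between the times, by the direct limma comparison of SAP 24 h with SAP 12 h. Spry2 had a log2 fold change of -0.64 (adjusted p = 0.0306) and averaged 9.23 ± 0.18 log2 at SAP 24 h, 9.87 ± 0.09 at SAP 12 h and 9.64 ± 0.28 in sham hearts (SD, n = 5 each). Hsph1, a heat shock chaperone, had -0.73 (adjusted p = 0.0149) and averaged 7.46 ± 0.25, 8.19 ± 0.23 and 8.11 ± 0.08 log2 in the same groups. Leaving out 1 array at a time, the call of Spry2 was lost in 7 of 10 fits and that of Hsph1 in 1, and both were lost without the 4 atrium-rich arrays (adjusted p = 0.125 and 0.0566).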

How the results depend on the processing

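At SAP 24 h against sham 2 members were called, and in every fit without 1 array the count was 2. It was 4 with atrial content as a covariate and 2 or 3 under the other alternatives. At SAP 12 h against sham the count of 2 became 1 with the trend and robust settings of eBayes, 1 at an adjusted p under 0.01 and 0 without the 4 atrium-rich arrays, a fit with 11 arrays. It ranged from 1 to 3 without 1 array. At SAP 24 h against SAP 12 h the count of 0 became 1 with the atrial covariate and ranged from 0 to 1 without 1 array. Directions turned for members that were not called. For Jun at SAP 24 h against SAP 12 h the value was 0.02 with array weights, and without 1 array it ranged from -0.36 to 0.09. For Nr4a1 in that comparison it was -0.25 with the atrial covariate and ranged from -0.06 (without SAP 24 h replicate 3) to 0.82 without 1 array. Without 1 array, the SAP 12 h values ranged from -0.34 to 0.12 for Jun, from -0.02 to 0.36 for Junb and from -0.25 (without SAP 12 h replicate 2, its highest array) to 0.56 for Zfp36. Ier3 ranged from -0.23 to 0 at SAP 24 h, the last without sham replicate 5, and was at 0 at SAP 12 h without the 4 atrium-rich arrays. The causes were not tested. The filter on the lowest 50% of probe sets removed Fos and Ier2, so neither has a value there. The exact permutation test gave unadjusted p-values only, with 0.00794 the smallest possible. With the replicate number as a block the counts were 2 at SAP 24 h, 2 at SAP 12 h and 0 between the SAP groups. The labels state no pairing. Of 15 same-numbered pairs, 2 correlated above 0.1 (range -0.168 to 0.258). Such correlations cannot show whether animals were handled in numbered sets.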
